A study of Mus musculus with 5 samples.

Results

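Transcripts of 40 genes of glycolysis and of the response to low oxygen were examined in bone marrow-derived macrophages (BMDMs) treated with lipopolysaccharide (LPS), a bacterial stimulus. The members are a list of symbols chosen with earlier results of these data known, and all 40 were found among the 21878 genes of the deposited table. They comprise 25 glycolytic genes (transporters of glucose and lactate, the enzymes from hexokinase to lactate dehydrogenase, and their regulators) and 15 hypoxia genes (the hypoxia-inducible factors, their oxygen sensors and genes known to be induced by low oxygen). Wild-type BMDMs came from Kdm6aF/Y mice (samples 1 and 3, n = 2), which carry the floxed allele without Cre recombinase. Kdm6a-deficient BMDMs came from Kdm6aF/Y;Lyz2-Cre mice (samples 1, 2 and 3, n = 3), in which Cre is driven from the lysozyme 2 gene of myeloid cells, so that other cells in the culture keep Kdm6a. All 5 samples carry the floxed allele and all were treated with LPS, so there is no unstimulated sample. For BMDMs the study describes marrow of 10-week-old male mice grown for 6 days in 10 ng/ml M-CSF, the growth factor of macrophages, and for 3 more days in its absence, and for M1 polarisation in general 100 ng/ml LPS for 24 h. The RNA is described as pooled, and whether each sample had its own mouse or culture is not stated, so the p-values cover the spread among these 5 samples and that spread may be technical.

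Glycolysis splits glucose into pyruvate in the cytosol. Macrophages stimulated with LPS are known to lean on this pathway and to convert much of the pyruvate into lactate. The hypoxia-inducible factors (HIFs) are pairs of an unstable alpha subunit, Hif1a or Epas1 (Hif2a), with the stable partner Arnt. With oxygen present, prolyl hydroxylases of the Egln family mark the alpha subunit for destruction through the Vhl protein, and without oxygen the factor binds the core sequences ACGTG and GCGTG near its targets, many glycolytic genes among them. LPS is known to stabilise Hif1a in macrophages even when oxygen is present. Kdm6a removes methyl groups from lysine 27 of histone H3, a mark of silenced genes.

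The targeted gene Kdm6a had 3.72 and 2.91 FPKM in wild-type BMDMs and 2.81, 1.77 and 2.44 FPKM in Kdm6a-deficient BMDMs. FPKM counts the sequenced fragments of a gene relative to its transcript length in kilobases and to the number of fragments mapped. Its genotypes did not overlap, but the difference did not pass the test (log2 fold change −0.38, limma adjusted p = 0.268), and the FPKM of a whole gene says nothing of the floxed exons alone. The total depth of each sample is not given with the FPKM. In the authors' table the mean normalised counts of all genes together are 19003670 (wild-type) and 18933944 (Kdm6a-deficient), and the relative depths of the 5 samples read from them lie between 0.946 and 1.09. The first principal component of the tested genes held 50.2% of the variance and separated the genotypes. Along the second, with 32.5%, Kdm6a-deficient sample 2 (−14.5) stood apart from samples 1 and 3 (9.22 and 4.31). The wild-type samples 1 and 3 were apart along it as well (7.68 and −6.67). The macrophage markers were abundant, with Adgre1 (F4/80) at 734 to 831 FPKM, while markers of stromal cells were abundant as well, with the collagen gene Col1a1 at 653 to 1114 FPKM.

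Glycolytic enzymes were among the abundant transcripts of these BMDMs, and the member with the largest change between the genotypes was the hypoxia gene Ndrg1. Each gene was tested with limma on log2(FPKM + 1) together with all other genes, and p-values were adjusted over all of them by the Benjamini-Hochberg method, with 0.05 as the threshold. For genes with low levels, fold changes on this scale come out too small. All 40 members passed the filter of 1 FPKM in at least 2 samples. Of these, 10 were lower and 1 was higher in Kdm6a-deficient BMDMs, where 2.18% of the 10893 tested genes were lower and 1.73% higher (3.91% in either direction). The other 29 did not pass, with adjusted p from 0.0541 to 0.984. In 23 members every Kdm6a-deficient sample was below both wild-type samples, and in 2 every one was above, where the tested genes as a whole gave 19.2% and 16.7%. The median log2 fold change was −0.34 over the 15 hypoxia members, −0.14 over the 25 glycolytic members and 0.0048 over all tested genes. The counts changed with single samples: 4, 13 and 1 members were lower when Kdm6a-deficient sample 1, 2 and 3 was omitted. Omitting wild-type sample 1 or 3 leaves 1 sample in that genotype. A call lost there does not show that the difference rests on the omitted sample. In those fits the median of the hypoxia members was −0.405 and −0.325, and that of the glycolytic members −0.20 and −0.0941. Of the 40 members, 38 and 35 lay below 0. With all samples 35 of them did, where 5279 of the 10893 tested genes lay below 0. For any 1 gene taken alone, the smallest two-sided p of an exact permutation of these 5 samples is 0.1.

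**Figure D1:**
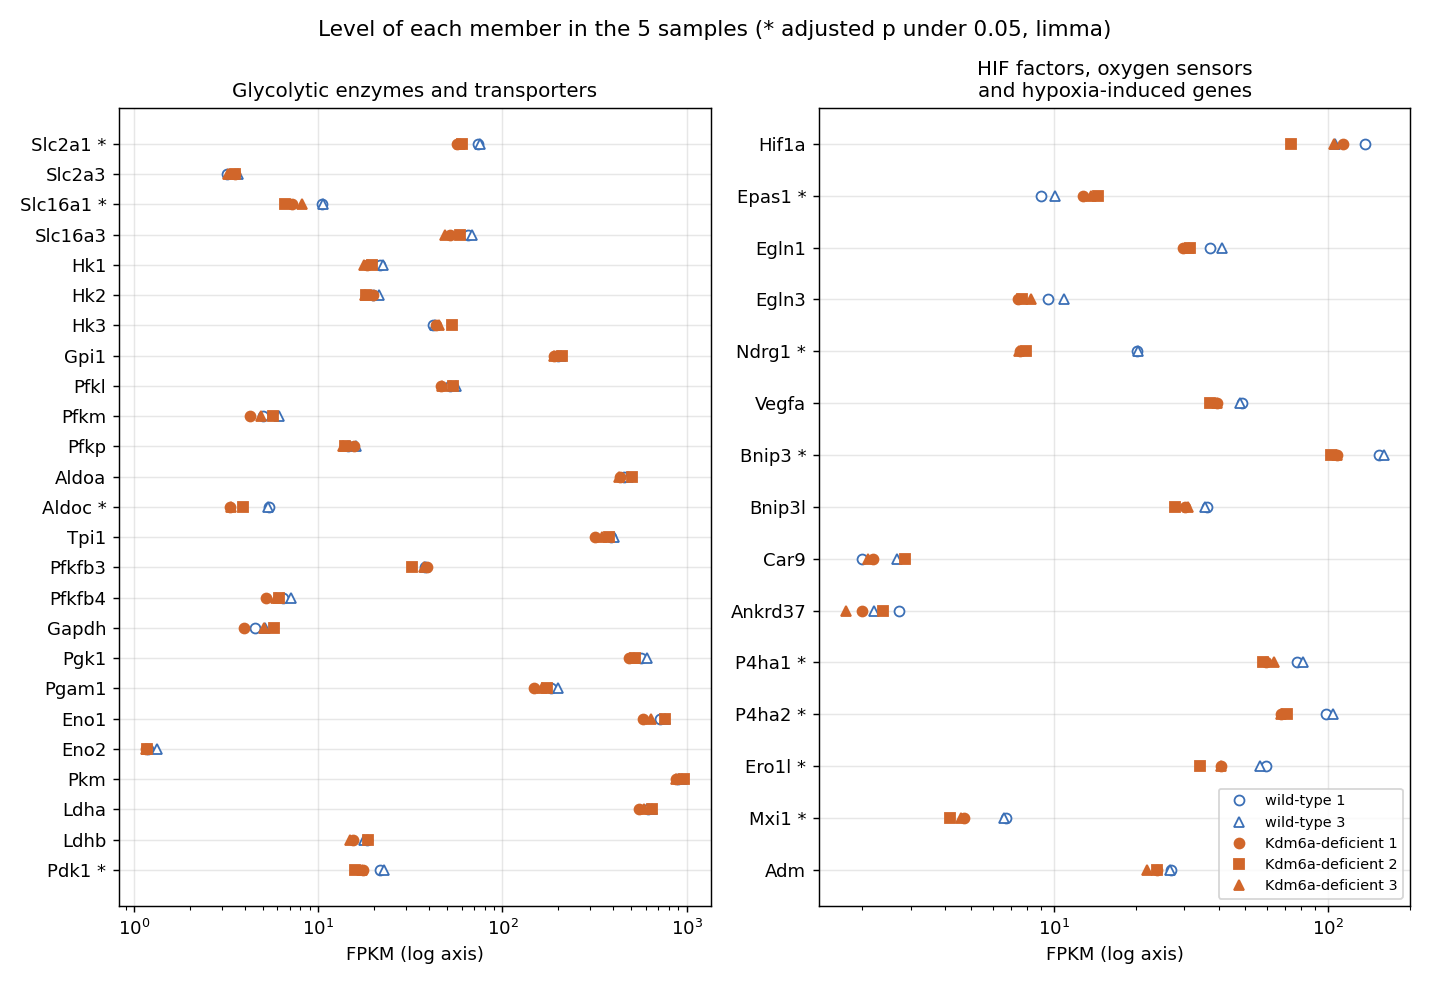
FPKM of each of the 40 members (log axis) in the 2 wild-type samples (open blue) and the 3 Kdm6a-deficient samples (filled orange), with the sample number given by the shape. Stars mark the 11 members that passed the test, and Pkm has the highest level at 870 to 965 FPKM.

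Of the facilitative glucose transporters Slc2a1 (Glut1) and Slc2a3 (Glut3), Slc2a1 held 94.1 to 95.9% of the summed FPKM of both in every sample. Slc2a6, which is not a member, was at 8.08 to 11.5 FPKM and is not in this sum. Uptake of glucose was not measured. The level of Slc2a1 was 73.5 and 75.3 FPKM in wild-type samples 1 and 3, and 56.8, 60.1 and 58.8 FPKM in Kdm6a-deficient samples 1, 2 and 3. The genotypes did not overlap, and Slc2a1 was lower in Kdm6a-deficient BMDMs by 0.34 on the log2 scale (95% interval −0.50 to −0.18, limma adjusted p = 0.0382). Slc2a3 overlapped, at 3.17 to 3.66 FPKM over all samples, with a log2 fold change of 0.0070 (95% interval −0.21 to 0.23, limma adjusted p = 0.984). Slc16a1 (Mct1), which carries lactate and pyruvate across the membrane with a proton, was at 10.4 and 10.6 FPKM in wild-type and 7.16, 6.62 and 8.19 FPKM in Kdm6a-deficient samples. It was lower as well, and its log2 fold change was −0.48 (standard error, SE, 0.099, limma adjusted p = 0.0474). Slc16a3 (Mct4), the lactate exporter of strongly glycolytic cells and the more abundant of this pair, was at 65.0 and 68.6 FPKM in wild-type and 51.6, 59.0 and 48.8 FPKM in Kdm6a-deficient samples. No Kdm6a-deficient sample reached the wild-type level, yet Slc16a3 did not pass (log2 fold change −0.33, limma adjusted p = 0.125). The call of Slc2a1 was lost when wild-type 1, wild-type 3, Kdm6a-deficient 1 or Kdm6a-deficient 3 was left out (limma adjusted p = 0.16, 0.354, 0.118 and 0.184), and that of Slc16a1 without any of the same samples (0.144, 0.301, 0.132 and 0.0763), with a pseudocount of 0.1 FPKM (0.0502), without a filter (0.0919) and with a filter on all 5 samples (0.0549). Slc16a3 passed without Kdm6a-deficient sample 2 (0.0208) and with quantile normalization (0.043).

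In the upper part of glycolysis, where glucose is phosphorylated and split, 1 of 10 members passed the test, Aldoc. Over all tested genes, 3.91% passed in either direction. Aldolase cleaves fructose bisphosphate into a pair of triose phosphates. Its C form, best known from brain, was at 5.41 and 5.30 FPKM in wild-type and 3.30, 3.88 and 3.37 FPKM in Kdm6a-deficient samples. Aldoc stood at 0.657 of the wild-type mean, a log2 fold change of −0.49 (SE 0.092, limma adjusted p = 0.0341). Aldoa, the A form, was the bulk of the aldolase transcript, with 98.8 to 99.2% of the summed FPKM. Aldoa was at 456 and 481 FPKM in wild-type and 433, 502 and 427 FPKM in Kdm6a-deficient samples, so that the genotypes overlapped (log2 fold change −0.05, 95% interval −0.28 to 0.18, limma adjusted p = 0.86). The call of Aldoc was lost when wild-type 1, wild-type 3, Kdm6a-deficient 1 or Kdm6a-deficient 3 was left out (limma adjusted p = 0.13, 0.208, 0.111 and 0.161) and without a filter on low values (0.0743).

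Hexokinase, which traps glucose in the cell, was represented by 3 genes. Hk3, a form of myeloid cells, held 49.7 to 50.1% of their summed FPKM in wild-type samples and 53.4, 58.6 and 56.0% in Kdm6a-deficient samples. Hk1, the form of most tissues, held 25.8 to 25.9% in wild-type samples and 21.5 to 22.4% in Kdm6a-deficient samples. These shares did not overlap between the genotypes. Hk2, the form induced by insulin and by hypoxia, was at 19.9 and 21.3 FPKM in wild-type and 19.8, 18.1 and 17.9 FPKM in Kdm6a-deficient samples. None of the 3 hexokinase genes passed the test by its level (log2 fold changes of −0.23 for Hk1, −0.14 for Hk2 and 0.16 for Hk3, limma adjusted p = 0.177, 0.435 and 0.486). Phosphofructokinase, the committed step, was made up mostly of the liver form Pfkl (69.8 to 73.3% of the summed FPKM of Pfkl, Pfkm and Pfkp), with shares that overlapped between the genotypes. Pfkfb3, an enzyme that makes the activator of phosphofructokinase and is known to respond to LPS, was at 37.8 FPKM in both samples of wild-type BMDMs, against 38.8, 32.3 and 37.6 FPKM in Kdm6a-deficient samples. Its log2 fold change was −0.06 (95% interval −0.28 to 0.15, limma adjusted p = 0.793), and 0.014 without Kdm6a-deficient sample 2.

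None of the 6 members of lower glycolysis, where ATP is made, passed the test in limma (unadjusted p was under 0.05 for 2, against 17.3% of all tested genes). Pkm, pyruvate kinase of muscle and most dividing cells, had the highest level of all members. It was at 902 and 942 FPKM in wild-type and 870, 965 and 872 FPKM in Kdm6a-deficient samples (log2 fold change −0.03, 95% interval −0.24 to 0.18, limma adjusted p = 0.9, and 0.052 with quantile normalization). Eno1, Pgk1 and Pgam1, which carry the steps between Gapdh and pyruvate kinase, had mean levels of 662, 510 and 162 FPKM in Kdm6a-deficient BMDMs, with log2 fold changes of −0.17, −0.20 and −0.24 (limma adjusted p = 0.575, 0.27 and 0.228). In Pgk1 and Pgam1 every Kdm6a-deficient sample was below both wild-type samples, whereas in Eno1 Kdm6a-deficient sample 2, at 767 FPKM, was above both. Pgam1 passed with quantile normalization (limma adjusted p = 0.0243). With a replicate block, a model term for the sample number, Pgk1, Pgam1 and Eno1 passed (limma adjusted p = 0.0207, 0.014 and 0.0124). Gapdh, glyceraldehyde-3-phosphate dehydrogenase, usually among the most abundant transcripts, was listed at only 3.93 to 5.72 FPKM. The authors' mean normalised count of Gapdh was 5404 in wild-type and 5340 in Kdm6a-deficient BMDMs, or 1086 counts for each FPKM in Kdm6a-deficient BMDMs, against 27.5 to 156.5 for the other 39 members. The FPKM of Gapdh is therefore uncertain as a level. Gapdh and several other enzymes of this pathway have processed pseudogenes that can share reads with them.

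At the end of the pathway, pyruvate is reduced to lactate or enters the mitochondria. Ldha, the subunit of lactate dehydrogenase that favours lactate, held 97.1 to 97.5% of the summed FPKM of Ldha and Ldhb in all samples. Its level was 620 and 649 FPKM in wild-type and 551, 646 and 587 FPKM in Kdm6a-deficient samples. The genotypes overlapped through Kdm6a-deficient sample 2 (log2 fold change −0.10, 95% interval −0.32 to 0.12, limma adjusted p = 0.683). Ldha passed only with a replicate block (log2 fold change −0.16, limma adjusted p = 0.0499). Pdk1, the kinase that shuts off pyruvate dehydrogenase, was the member of this group that passed in the main fit. Pdk1 was at 21.7 and 22.7 FPKM in wild-type and 17.5, 15.8 and 17.2 FPKM in Kdm6a-deficient samples, without overlap. This is a log2 fold change of −0.38 (SE 0.076, limma adjusted p = 0.0439). Its call was lost when wild-type 1, wild-type 3, Kdm6a-deficient 1 or Kdm6a-deficient 3 was left out (limma adjusted p = 0.132, 0.354, 0.0942 and 0.17) and without a filter (0.0605).

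Kdm6a-deficient sample 2 had the highest value of its genotype in 19 of the 25 glycolytic members, and wild-type sample 3 was above wild-type sample 1 in 22 of them. In the hypoxia members no such order was seen, since Kdm6a-deficient sample 2 was highest of its genotype in 6 and lowest in 7 of 15. The summed FPKM of the glycolytic members was 4432 and 4675 in wild-type and 3924, 4546 and 4099 in Kdm6a-deficient samples, where sample 2 lies between the wild-type samples. As a share of all FPKM the same sums were 1.11 and 1.14% in wild-type and 1.01, 1.05 and 1.03% in Kdm6a-deficient samples, which do not overlap. The number of glycolytic members that were lower was 4 with all samples, where 2.18% of all tested genes were lower. It was 0 when Kdm6a-deficient 1 or 3 was left out, and 5 without Kdm6a-deficient sample 2.

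**Figure D2:**
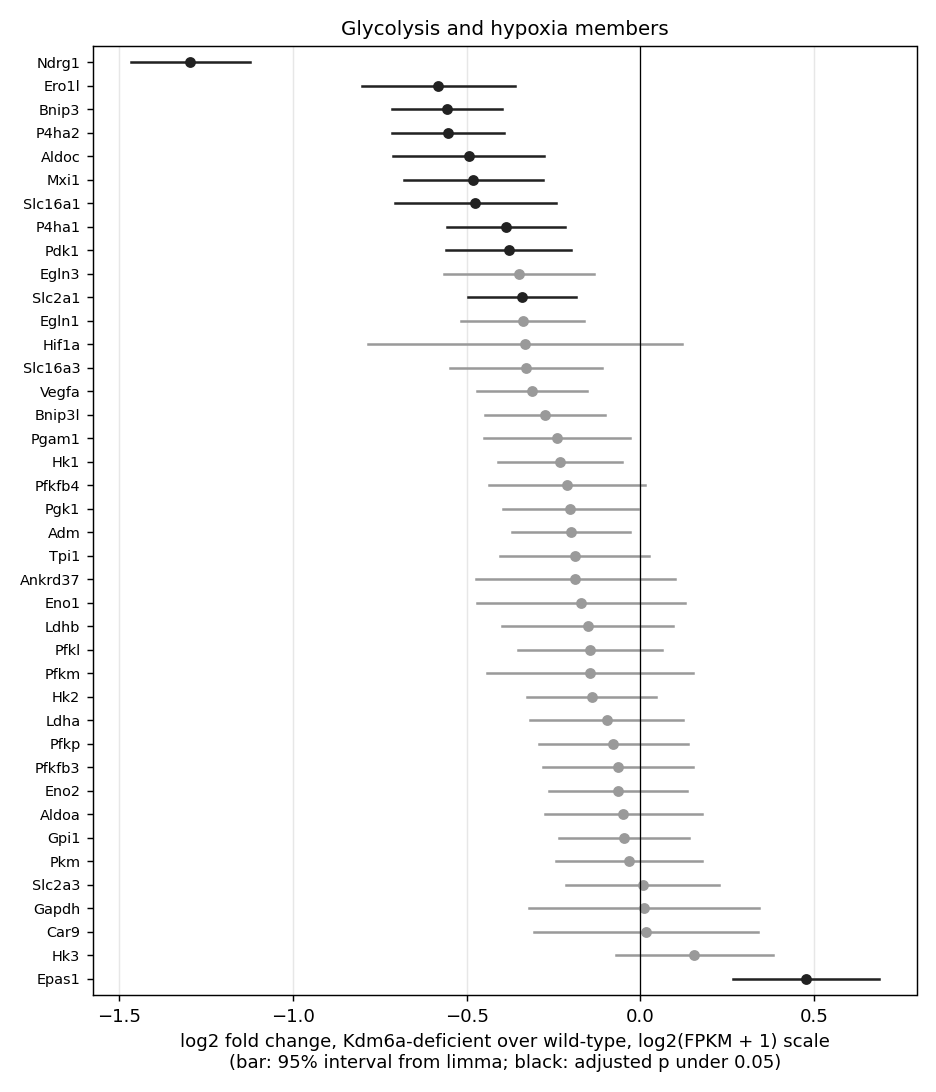
Log2 fold change of each of the 40 members, Kdm6a-deficient over wild-type, on the log2(FPKM + 1) scale, with the 95% interval from limma. Black marks the 11 members with an adjusted p under 0.05, from Ndrg1 at −1.29 to Epas1 at 0.48. Below 0 lie 35 of the 40 members, and 5279 of all 10893 tested genes.

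Of the HIF alpha subunits, Epas1 was higher and Hif1a did not pass, and the difference between them was not tested. Epas1 (Hif2a), the alpha subunit also known from endothelial cells and from macrophages of the M2 type, was the only member that was higher in Kdm6a-deficient BMDMs. It was at 9.0 and 10.1 FPKM in wild-type and 12.8, 14.6 and 13.7 FPKM in Kdm6a-deficient samples. Epas1 rose 1.43-fold, with means of 9.54 ± 0.768 (SD, n = 2) and 13.7 ± 0.893 FPKM (SD, n = 3). This is a log2 fold change of 0.48 (95% interval 0.27 to 0.69, limma adjusted p = 0.0342). Hif1a, the most abundant transcript of this group, was at 137 and 107 FPKM in wild-type and 113, 73.8 and 106 FPKM in Kdm6a-deficient samples. The spread within each genotype was wide and the genotypes overlapped, so the difference did not pass (log2 fold change −0.33, 95% interval −0.78 to 0.12, limma adjusted p = 0.45), and it came to −0.15 and −0.51 with wild-type 1 and 3 left out, and to −0.45, −0.14 and −0.40 with Kdm6a-deficient 1, 2 and 3 left out. The level of an alpha subunit transcript does not measure its protein, which is controlled by degradation. The call of Epas1 was lost when wild-type 1, wild-type 3, Kdm6a-deficient 1 or Kdm6a-deficient 3 was left out (limma adjusted p = 0.164, 0.126, 0.0587 and 0.156) and without a filter on low values (0.064).

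The oxygen sensors Egln1 (Phd2) and Egln3 (Phd3) hydroxylate the HIF alpha subunits and are themselves targets of HIF. Egln1 was at 37.3 and 41.1 FPKM in wild-type and 29.6, 31.6 and 31.2 FPKM in Kdm6a-deficient samples. Egln3 was at 9.51 and 10.9 FPKM in wild-type and 7.43, 7.67 and 8.29 FPKM in Kdm6a-deficient samples. Neither overlapped between the genotypes, and neither passed the threshold (log2 fold changes −0.34 and −0.35, limma adjusted p = 0.0579 and 0.101). Egln1 did pass without Kdm6a-deficient sample 2 (0.0434) and with scaling by the median of ratios (0.0483), the upper quartile (0.0343) or quantiles (0.0274).

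Among the 11 hypoxia-induced genes, 6 were lower in Kdm6a-deficient BMDMs and none was higher in limma, against 2.18% and 1.73% of all tested genes. Unadjusted p was under 0.05 for 9, against 17.3% of all tested genes. Ndrg1, a stress-responsive gene whose protein takes part in vesicle traffic and differentiation, changed the most. It was at 20.1 and 20.4 FPKM in wild-type and 7.51, 7.93 and 7.49 FPKM in Kdm6a-deficient samples. Its means were 20.2 ± 0.212 (SD, n = 2) and 7.64 ± 0.248 FPKM (SD, n = 3), so that Kdm6a-deficient BMDMs stood at 0.378 of wild-type. This is a log2 fold change of −1.29 (95% interval −1.47 to −1.12, limma adjusted p = 0.000488). It passed under all 12 alternatives, the omission of each sample included, with adjusted p from 0.000552 to 0.00921. The authors' mean normalised counts behind these values were 1318 in wild-type and 507 in Kdm6a-deficient BMDMs, the former over 1 wild-type sample beyond the 2 used for FPKM.

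Bnip3 and its relative Bnip3l (Nix) are receptors at the mitochondrial membrane that mark mitochondria for removal by autophagy. Bnip3, with the highest level of the hypoxia members, was at 154 and 160 FPKM in wild-type and 108, 103 and 108 FPKM in Kdm6a-deficient samples. The means were 157 ± 4.26 (SD, n = 2) and 107 ± 3.01 FPKM (SD, n = 3), and the log2 fold change was −0.56 (95% interval −0.72 to −0.40, limma adjusted p = 0.00687). Bnip3l did not pass, with a log2 fold change of −0.28 (limma adjusted p = 0.105), although its genotypes did not overlap. The call of Bnip3 did not hold when wild-type 3 (limma adjusted p = 0.105) or Kdm6a-deficient 3 (0.0571) was left out.

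The prolyl 4-hydroxylases P4ha1 and P4ha2, alpha subunits of the enzyme that hydroxylates collagen chains, and Ero1l, the oxidase that drives disulfide bonds in the endoplasmic reticulum, act on newly made secreted proteins. P4ha2 was at 98.4 and 105 FPKM in wild-type and 67.8, 70.9 and 67.7 FPKM in Kdm6a-deficient samples, a log2 fold change of −0.55 (SE 0.069, limma adjusted p = 0.00736). P4ha1 was at 77.2 and 81.4 FPKM in wild-type and 59.6, 58.2 and 63.5 FPKM in Kdm6a-deficient samples, a log2 fold change of −0.39 (SE 0.072, limma adjusted p = 0.0335). Ero1l was at 59.4 and 56.8 FPKM in wild-type and 40.8, 34.3 and 40.7 FPKM in Kdm6a-deficient samples, a log2 fold change of −0.58 (SE 0.093, limma adjusted p = 0.0184). None of these genes overlapped between the genotypes. The calls of P4ha2, P4ha1 and Ero1l did not hold when wild-type 3 (limma adjusted p = 0.108, 0.327 and 0.116) or Kdm6a-deficient 3 (0.0638, 0.108 and 0.0747) was left out, those of P4ha1 and Ero1l also without wild-type sample 1 (0.109 and 0.0875), and that of P4ha1 without Kdm6a-deficient sample 1 (0.1).

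Mxi1, a repressor that competes with Myc for its partner Max, was at 6.71 and 6.55 FPKM in wild-type and 4.68, 4.17 and 4.57 FPKM in Kdm6a-deficient samples. Its log2 fold change was −0.48 (SE 0.085, limma adjusted p = 0.0276). Vegfa, the main growth factor of blood vessels, was at 48.7 and 47.7 FPKM in wild-type and 39.3, 37.2 and 39.5 FPKM in Kdm6a-deficient samples. Vegfa stayed just short of the threshold, without overlap between the genotypes (log2 fold change −0.31, 95% interval −0.47 to −0.15, limma adjusted p = 0.0541). It passed without Kdm6a-deficient sample 2 (0.0336) and with scaling by the upper quartile (0.047) or quantiles (0.0417), while the call of Mxi1 was lost when wild-type 1, wild-type 3, Kdm6a-deficient 1 or Kdm6a-deficient 3 was left out (limma adjusted p = 0.122, 0.185, 0.0708 and 0.119) and without a filter (0.0565). Adm, adrenomedullin, a peptide that widens blood vessels, did not overlap between the genotypes either (log2 fold change −0.20, limma adjusted p = 0.216). Car9 and Ankrd37, the members of this group with the lowest levels at 1.74 to 2.86 FPKM, overlapped, and the authors' mean normalised counts for them were 66.2 to 124.

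**Figure D3:**
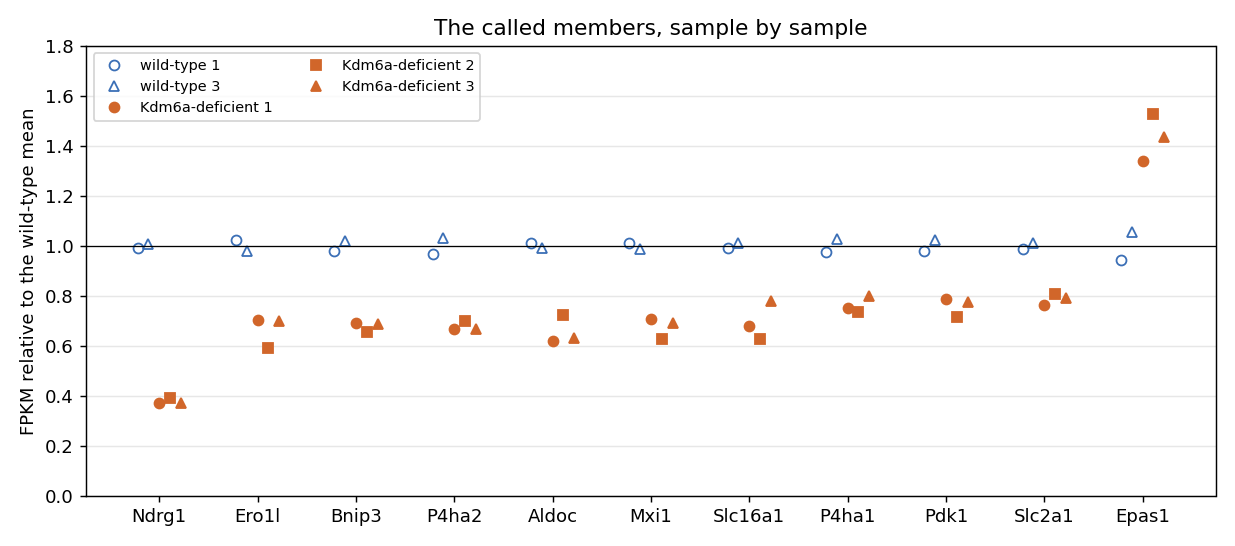
FPKM of the 11 called members in each sample, divided by the wild-type mean of the gene, with wild-type samples in open blue, Kdm6a-deficient samples in filled orange and the sample number given by the shape. Ndrg1 stands lowest, at a mean of 0.378 of wild-type, and Epas1 is the only one above 1, at a mean of 1.43.

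The summed FPKM of the 15 hypoxia members was 726 and 714 in wild-type samples and 549, 500 and 547 in Kdm6a-deficient samples, without overlap. Of these 15 members, 6 were lower with all samples, where 2.18% of all tested genes were lower. With Kdm6a-deficient 1, 2 and 3 left out in turn, 4, 8 and 1 of the members were lower. In the authors' mean normalised counts, 14 of the 15 hypoxia members and 23 of the 25 glycolytic members had the lower value in Kdm6a-deficient BMDMs. These means come from the same samples and a further wild-type sample, so they are no separate support. The share over all genes was not counted, and the size of the differences was not tested.

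Many of the members are known HIF targets, which is part of why they were listed. Promoter sequences from RefSeq (build GRCm38.p6) were searched for the HIF core sequences ACGTG and GCGTG on both strands, in the 250 bases before and 50 bases after each transcription start. A palindromic CACGTG counts on each strand. Of the 40 members, 36 had at least 1 promoter in the table, 52 promoters in all, and Ndrg1, Epas1, Slc2a3 and Bnip3l had none. At least 1 of the cores stood in 80.8% of the members' promoters (42 of 52), against 43.8% of all 32851 promoters. The latter were not matched to the members by base composition or by expression in BMDMs. Some windows of the same gene overlap, as in Eno1 and Aldoa, and were counted separately. Whether the shares differ beyond this was not tested. Among promoters of members that were lower the share was 84.6% (11 of 13), and among those of members that did not pass 79.5% (31 of 39), so the lists of promoters were close in this share. A match is a run of letters and not a measured binding site. The stretches of 100 bases with the most matches before a start are shown for 5 members that were lower and, for contrast, for Ldha, which did not pass, 5′ to 3′ on the strand of the gene, with every core in capitals (CACGT and CACGC are the cores read from the other strand).
Bnip3, chr7:138909537-138909636, minus strand: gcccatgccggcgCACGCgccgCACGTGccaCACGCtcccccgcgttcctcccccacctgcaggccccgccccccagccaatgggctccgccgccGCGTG
P4ha2, chr11:54100789-54100888, plus strand: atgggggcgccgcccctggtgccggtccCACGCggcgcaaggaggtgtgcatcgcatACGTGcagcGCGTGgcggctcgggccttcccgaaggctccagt
P4ha1, chr10:59323101-59323200, plus strand: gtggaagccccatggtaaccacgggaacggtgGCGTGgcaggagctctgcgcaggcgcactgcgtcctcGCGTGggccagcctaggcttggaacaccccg
Ero1l, chr14:45318616-45318715, minus strand: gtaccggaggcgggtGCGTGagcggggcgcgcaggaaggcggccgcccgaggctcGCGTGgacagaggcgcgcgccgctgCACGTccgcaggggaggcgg
Slc2a1, chr4:119108645-119108744, plus strand: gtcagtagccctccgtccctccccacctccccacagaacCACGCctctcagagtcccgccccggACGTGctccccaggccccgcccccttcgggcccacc
Ldha, chr7:46845704-46845803, plus strand: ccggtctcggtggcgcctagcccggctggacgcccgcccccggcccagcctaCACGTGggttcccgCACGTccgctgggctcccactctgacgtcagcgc
Bnip3 holds 5 cores in its stretch, P4ha2, Ero1l and Ldha 3 each, and P4ha1 and Slc2a1 2 each.

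Beyond the members, another list held genes of the HIF pathway and of the hypoxia response. Like the members, these genes were chosen with earlier results of these data known. The same samples were used, so this list is no independent support. Of 40 listed genes 37 were tested, of which limma called 11 lower and none higher, where 2.18% of all tested genes were lower, and 26 did not pass. Unadjusted p was under 0.05 for 20 of the 37, against 17.3% of all tested genes. The median log2 fold change was −0.24, and 5 of the 37 were above 0, where 5614 of all 10893 tested genes were above 0. In 23 of the 37 every Kdm6a-deficient sample was below both wild-type samples, and in 2 every one was above, against 19.2% and 16.7% of all tested genes. Plod2, which hydroxylates lysines of collagen, was at 70.8 and 66.0 FPKM in wild-type and 35.8, 29.0 and 35.6 FPKM in Kdm6a-deficient samples, a log2 fold change of −1.01 (SE 0.11, limma adjusted p = 0.00345). Ddit4 (Redd1), an inhibitor of mTORC1, was at 50.8 and 56.6 FPKM in wild-type and 29.4, 30.3 and 31.3 FPKM in Kdm6a-deficient samples, a log2 fold change of −0.80 (SE 0.076, limma adjusted p = 0.0028). Both were clear of the spread between samples, and both passed without any of the 5 samples in turn. Cxcr4, the receptor of the chemokine Cxcl12, was at 15 and 15.7 FPKM in wild-type and 9.01, 7.71 and 8.33 FPKM in Kdm6a-deficient samples (log2 fold change −0.81, limma adjusted p = 0.00392). Stc2, a secreted glycoprotein, was at 3.93 and 3.89 FPKM in wild-type and 1.8, 1.51 and 1.79 FPKM in Kdm6a-deficient samples (log2 fold change −0.86, limma adjusted p = 0.00371). These genes also passed without any of the samples in turn.

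Nos2, the inducible nitric oxide synthase of M1 macrophages and a known HIF target, was low in these LPS-treated BMDMs, at 2.0 and 2.27 FPKM in wild-type and 0.625, 0.597 and 0.587 FPKM in Kdm6a-deficient samples. It stood at 0.283 of the wild-type mean, with a log2 fold change of −0.97 (limma adjusted p = 0.00261), and −1.67 with a pseudocount of 0.1 FPKM. Without either wild-type sample in turn Nos2 no longer passed the filter on low values and was not tested. Only the wild-type samples reached 1 FPKM, so that filter admitted Nos2 through that genotype alone and fixed its direction. The remaining 6 genes that were lower were the transcriptional repressor Bhlhe40, the lipoprotein receptor Vldlr, the glycogen synthase Gys1, the adenylate kinase Ak4 and the mitochondrial proteins Fam162a and Ndufa4l2. Their log2 fold changes were −0.57, −0.63, −0.41, −0.44, −0.51 and −0.65 (limma adjusted p = 0.00845, 0.0104, 0.0272, 0.0346, 0.041 and 0.0494). Ndufa4l2 was at 32.5 and 32.7 FPKM in wild-type and 17.9, 25.1 and 18.9 FPKM in Kdm6a-deficient samples, so that sample 2 lay between the wild-type samples and the other Kdm6a-deficient samples. Among the genes that did not pass, Lox, which crosslinks collagen, and the mitochondrial protein Higd1a had the largest changes (log2 fold changes −0.42 for both, limma adjusted p = 0.064 and 0.101). The number of lower genes was 7, 15 and 5 with Kdm6a-deficient 1, 2 and 3 left out. All 6 of these calls were lost without wild-type sample 1 (limma adjusted p = 0.0607 for Bhlhe40, 0.0554 for Vldlr, 0.0835 for Gys1, 0.104 for Ak4, 0.0789 for Fam162a and 0.126 for Ndufa4l2), without wild-type sample 3 (0.0749, 0.0945, 0.292, 0.299, 0.325 and 0.246, in the same order) and without Kdm6a-deficient sample 3 (0.0538, 0.0533, 0.133, 0.0978, 0.185 and 0.197), and those of Gys1, Ak4, Fam162a and Ndufa4l2 also without Kdm6a-deficient sample 1 (0.0914, 0.112, 0.101 and 0.111). Without a filter on low values the calls of Ak4 (0.0586), Fam162a (0.0882) and Ndufa4l2 (0.113) were lost, and that of Ndufa4l2 also with a pseudocount of 0.1 FPKM (0.0534), a filter on all 5 samples (0.0547) or the median of ratios (0.0503).

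**Figure D4:**
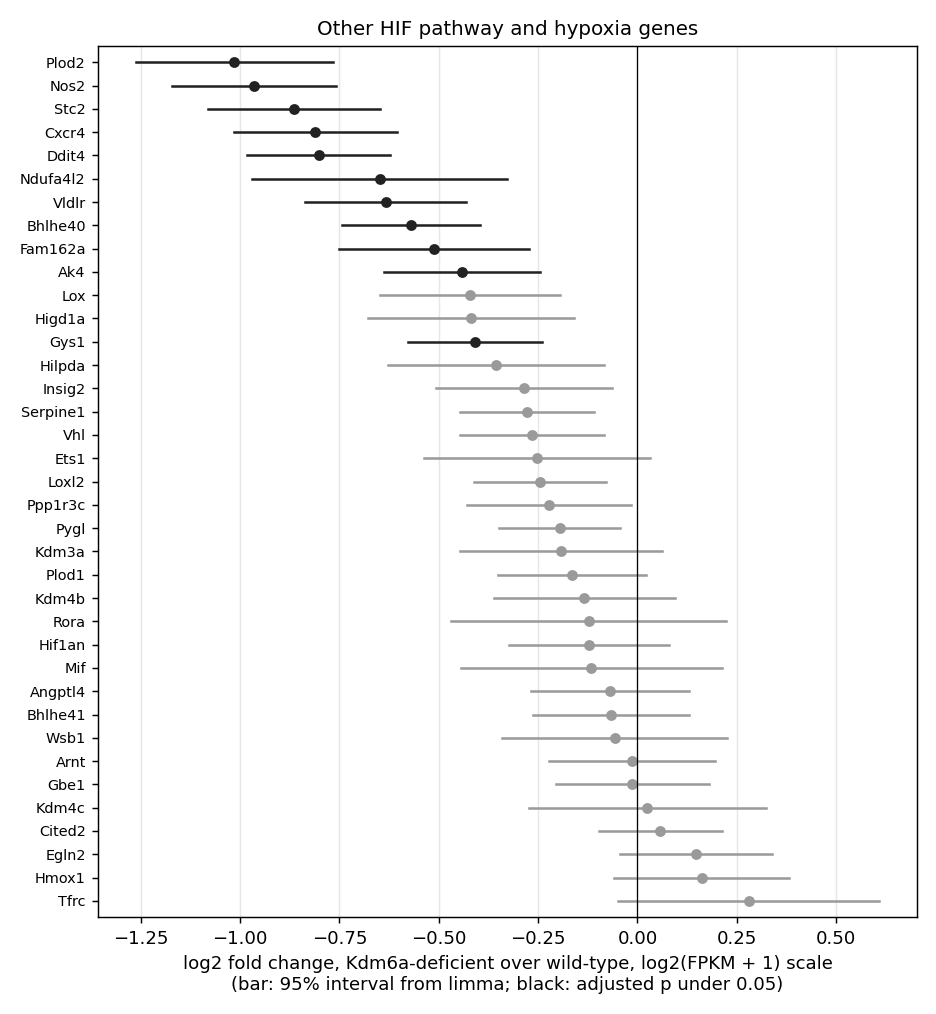
Log2 fold change of the 37 tested genes of the other HIF pathway and hypoxia genes, Kdm6a-deficient over wild-type, on the log2(FPKM + 1) scale, with the 95% interval from limma. Black marks the 11 genes with an adjusted p under 0.05, all below 0, from Plod2 at −1.01 to Gys1 at −0.41. Nos2, among them, passed the filter through the wild-type samples alone.

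Genes of neighbouring sugar metabolism were listed for comparison. Of 18 tested genes among other enzymes of glycolysis and of pyruvate entry, none passed in limma (unadjusted p was under 0.05 for 3, a share near the 17.3% of all tested genes), and the median log2 fold change was −0.0097. Pdk3, another kinase of pyruvate dehydrogenase, and Pcx, pyruvate carboxylase, had the largest changes (log2 fold changes −0.27 and −0.25, limma adjusted p = 0.228 and 0.226). Of the 8 genes of the pentose phosphate pathway, which branches off to make NADPH and ribose, none passed in limma (unadjusted p was under 0.05 for 0), and the median log2 fold change was 0.069. Tkt (transketolase) was at 113 and 119 FPKM in wild-type and 128, 142 and 126 FPKM in Kdm6a-deficient samples. G6pdx, the enzyme of entry into that pathway, was at 64.1 and 69.3 FPKM in wild-type and 72.0, 78.6 and 74.0 FPKM in Kdm6a-deficient samples. In Tkt and G6pdx every Kdm6a-deficient sample was above both wild-type samples, with log2 fold changes of 0.18 and 0.16 that did not pass (95% intervals −0.0096 to 0.37 and −0.011 to 0.34, limma adjusted p = 0.316 and 0.321). Whether these lists differ from the members was not tested.

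Markers of some other cell types differed between the genotypes as well, in both directions. For comparison, 2.18% of all tested genes were lower, 1.73% were higher and 17.3% had an unadjusted p under 0.05 in limma. In bulk RNA, fewer cells of a type and less RNA per cell cannot be told apart. The summed FPKM of 13 stromal markers was 5155 and 5475 in wild-type samples and 4245, 4372 and 4276 in Kdm6a-deficient samples. Of these markers 5 were lower (Dcn, Lum, Col1a1, Col1a2 and Sparc) and 1, the chemokine Cxcl12, was higher in limma, and none was at 0. The other 7 did not pass. The abundant Acta2, Tagln, Postn and Col3a1 had log2 fold changes of 0.14, 0.17, 0.21 and −0.04. Thy1, Pdgfra and Pdgfrb had −0.36, −0.17 and −0.22, with every Kdm6a-deficient sample below both wild-type samples. In Acta2 and Tagln every Kdm6a-deficient sample was above both wild-type samples. The summed FPKM of 8 endothelial markers was 23.8 and 24.3 in wild-type samples and 12.6 to 14.8 in Kdm6a-deficient samples, with 2 of 5 tested markers, Cdh5 and Tie1, lower. The 7 macrophage markers summed to 1998 and 2048 FPKM in wild-type samples and to 2204 to 2285 FPKM in Kdm6a-deficient samples, and none of them passed in limma (unadjusted p was under 0.05 for 2). Of 5 tested osteoclast markers 3 were lower (Ctsk, Dcstamp and Mmp9), while Atp6v0d2 lay above wild-type in every Kdm6a-deficient sample (log2 fold change 0.50, limma adjusted p = 0.0553), with summed FPKM of 226 and 234 in wild-type and 198 to 226 in Kdm6a-deficient samples. Of 3 tested monocyte markers 2, Ly6c2 and Plac8, and of 9 tested neutrophil markers 1, Ctsg, were higher, with summed FPKM of the whole lists at 49.3 and 53.5 against 66.2 to 73.1 (monocyte) and 2027 and 2145 against 2035 to 2612 (neutrophil). Erythroid markers were near 0, at a summed FPKM of 0.0355 to 0.744. Lum and Tie1 reached 1 FPKM in wild-type samples only, and Ctsg in Kdm6a-deficient samples only. The filter on low values thus fixed the direction of these markers, and their calls are no support for a change in cell types. Several members and listed genes that were lower, P4ha1, P4ha2 and Plod2 among them, act on collagen, which stromal cells make in quantity. The part of these cells in the lower hypoxia genes was not tested.

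**Figure D5:**
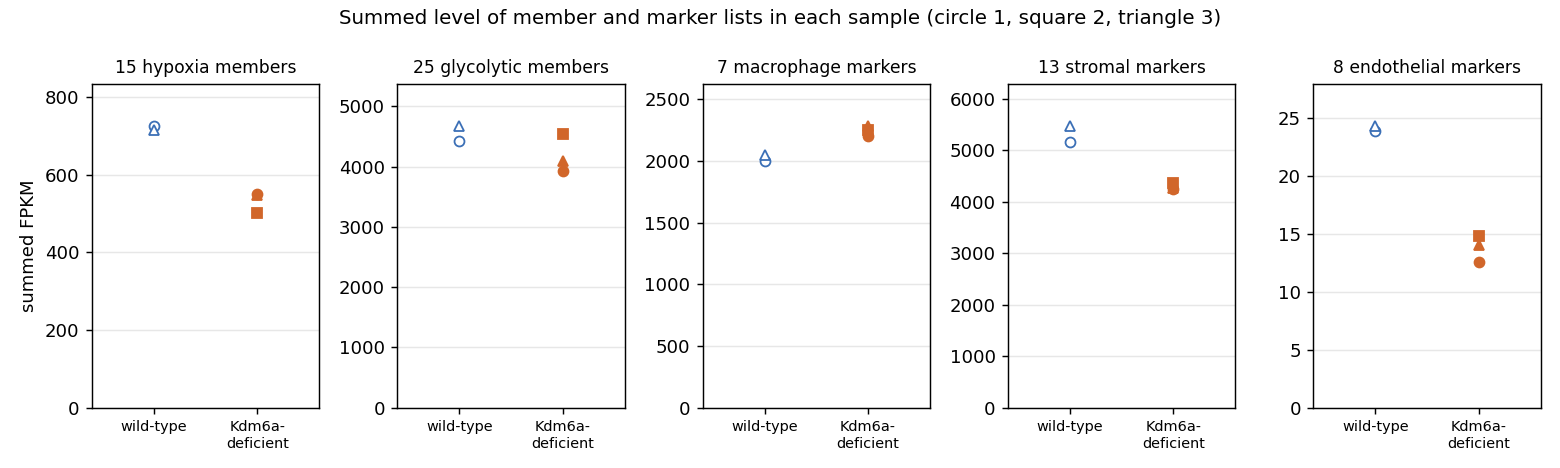
Summed FPKM of the 15 hypoxia members, the 25 glycolytic members and the lists of 7 macrophage, 13 stromal and 8 endothelial markers in each sample, each axis starting at 0. The sums of the hypoxia members (714 to 726 against 500 to 549), stromal and endothelial markers are lower in all 3 Kdm6a-deficient samples. The sum of the macrophage markers is higher, and that of the glycolytic members overlaps. Single stromal markers go both ways (8 below and 3 above wild-type without overlap), and 4 of the 7 macrophage markers overlap.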

How the data were processed

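The samples were 2 wild-type and 3 Kdm6a-deficient samples of BMDMs given LPS, with genotype and number taken from their titles. The authors mapped reads with TopHat and computed the deposited FPKM per gene with Cufflinks. The deposited table also holds a signal value per genotype, the authors' mean of gene counts divided by DESeq size factors. The steps of 1 read in that mean come in 3 sizes for wild-type, of which 1 matches neither wild-type sample used here, so it drew on 1 more sample, which is not analysed here. Columns of the authors' own comparison (fold changes and p-values) were not used. Bowtie 0.12.2 and the builds mm8 and mm9 appear in the submitters' processing notes without a role, and the labels name a TruSeq kit where the paper names a VAHTS kit. For other versions and for strand, the sources used here give nothing. No further columns per sample were left out (0).

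The design foresaw counts or, failing those, FPKM. limma-trend was fitted to log2(FPKM + 1) of genes that reached 1 FPKM in 2 or more samples, with both genotypes in the same model and no block, with Benjamini-Hochberg adjustment over all tested genes. Means with SD and shares use FPKM itself. The members and gene lists were chosen with earlier results of these data known. Full values were given for members that passed, members without overlap and with a log2 fold change of at least 0.3 in size, the most abundant member of each role, and Hif1a, Slc2a1, Hk2, Ldha, Pfkfb3, Pdk1 and Vegfa. In the other lists the genes named were those that passed and the 2 largest changes among the rest. Other genes, Gapdh among them, were chosen after their values were seen. The alternatives changed the pseudocount (0.1 FPKM), the filter (none, or all 5 samples), the scaling (quantile, median of ratios, upper quartile), added a replicate block, or left out each sample in turn. The fit was tested on simulated data. Models ran in limma 3.58.1 under R 4.3.3, and promoters and figures were made with pandas 2.3.3 and matplotlib 3.10.9 under Python 3.11.15.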

Additional observations from a re-analysis of the deposited data

How the results depend on the processing

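The total depth of each sample is not given with the FPKM, while the relative depths read from the authors' means lie between 0.946 and 1.09. With 2 samples against 3, most calls were lost when any sample but Kdm6a-deficient sample 2 was left out. Omitting a wild-type sample leaves 1 of that genotype, so the fits without wild-type 1 or 3 are best read by effect size. The log2 fold changes there were −0.36 and −0.32 for Slc2a1, −0.60 and −0.51 for P4ha2, and 0.40 and 0.55 for Epas1. With all samples they were −0.34, −0.55 and 0.48. Without a filter on low values 6 members were lower and 0 higher (1 glycolytic member lower, 0 hypoxia members higher). Quantile normalization gave 7 lower glycolytic members, of which Slc16a3, Tpi1 and Pgam1 were not lower in the main fit. It also gave 1 lower gene among other glycolysis and pyruvate genes (Pgm2) and 1 higher among other HIF pathway genes (Hmox1). Pkm turned to 0.052. The replicate numbers share no stated batch. A replicate block, in which Kdm6a-deficient sample 2 adds nothing, gave 21 lower members (11 glycolytic, 10 hypoxia). It also gave 2 lower other glycolysis and pyruvate genes (Pdk3 and Pgm2) and 17 lower other HIF pathway genes. The members lower there but not in the main fit were Slc16a3, Hk1, Tpi1, Pgk1, Pgam1, Eno1, Ldha, Egln1, Egln3, Vegfa and Bnip3l. Pfkfb3 turned to 0.014 under the block, and ranged from −0.115 to 0.014 with each sample left out in turn (0.014 without Kdm6a-deficient sample 2). The differences of samples 1 and 3 in the 2 genotypes had a correlation of 0.268 across genes, which are not independent. With each sample left out in turn, lower members numbered 1 to 13 (glycolytic 0 to 5, hypoxia 1 to 8), higher members 0 to 1 (hypoxia 0 to 1, glycolytic 0), lower other HIF pathway genes 4 to 15 and lower other glycolysis and pyruvate genes 0 to 1, while over all tested genes 46 to 281 were higher and 35 to 397 lower. The cause of these shifts was not tested. Under the other scalings the median log2 fold change of all genes lay between −0.017 and 0.0047.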
